A study of Homo sapiens with 6 samples.

Results

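The genes described here are 9 that are widely used as marks of monocytes and macrophages: CD14, CD4, SIRPA, LILRB1, LILRB4, FCGR2A, CD86, KLF4 and IRF8. They were taken by name from a table of 29810 genes. Of the 9, 8 had a row in that table, and KLF4 (ENSG00000136826), a transcription factor of monocytes, had none and is not analysed here. The samples are 6 RNA samples of Kasumi-1, a human leukaemia line of myeloblasts with a fusion of RUNX1 and RUNX1T1. Of these, 3 are labelled control and 3 were incubated with I1, a compound known only by that code, at 0.125 µM, and both groups were kept for 48 h. The labels do not say what the control received, nor whether replicates were grown apart. The p-values therefore refer to the variation among these 6 samples, and that variation may be technical. Levels are FPKM, the fragments of a gene scaled by its length and by the total of the library, so they can be compared between genes.

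Monocytes arise in the marrow from progenitors under the control of transcription factors such as PU.1, IRF8 and KLF4. As they mature they take up a set of surface proteins that sense microbes, bind antibody or restrain phagocytosis. CD14 presents bacterial lipopolysaccharide to a Toll-like receptor, FCGR2A binds antibody-coated particles, and CD86 gives the costimulatory signal to T cells. SIRPA, LILRB1 and LILRB4 carry inhibitory motifs in their tails and dampen the cell when they meet CD47 or MHC class I and other ligands. CD4 is best known from helper T cells, and human monocytes carry it as well.

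The 8 measured genes differed widely in level, and only some of them were well expressed in these myeloblasts. No monocyte sample was there for comparison. CD4 and SIRPA were well expressed in every library, at 28.1 to 36.6 and 13.2 to 19.8 FPKM. FCGR2A, IRF8 and LILRB1 lay near 1 FPKM. CD86 did not go above 0.445 FPKM, CD14 not above 0.117 FPKM, and LILRB4 had a single fragment in the 6 libraries together. Thus CD14, the defining marker of classical monocytes, was at or near 0 in these myeloblasts, while CD4 ranked 1177th and SIRPA 2582nd by mean level among the 29810 genes. By the mean over the 6 libraries the order was CD4, SIRPA, FCGR2A, IRF8, LILRB1, CD86, CD14 and LILRB4. The ranges of CD4 and SIRPA, of SIRPA and FCGR2A, and of LILRB1 and CD86 did not overlap. FCGR2A and IRF8 did overlap, with FCGR2A the higher in 4 of 6 libraries, as did IRF8 and LILRB1 (3 of 6), CD86 and CD14 (4 of 6), and CD14 and LILRB4.

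**Figure D1:**
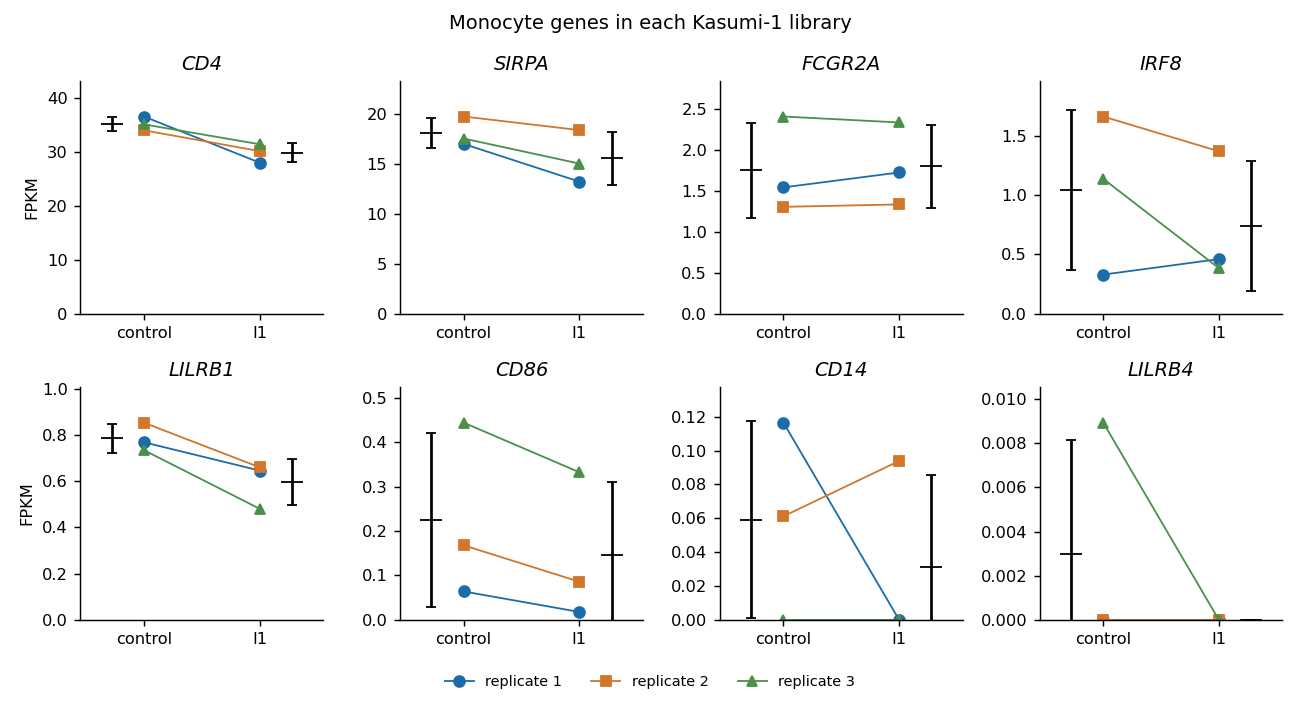
FPKM (linear axes from 0, a scale of its own for each gene) of the 8 measured monocyte genes in 3 control and 3 I1 libraries of Kasumi-1. Coloured points joined by lines are libraries that share a replicate number, and black bars show the mean and SD of each group (cut at 0). CD4 and LILRB1 are the genes in which all I1 points lie under all control points, and SIRPA, LILRB1, FCGR2A and CD86 keep the same order of replicate numbers in both groups.

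The comparison of I1 with control asked whether these genes changed after 48 h. None of them passed the test. With I1 the means of CD4, SIRPA, LILRB1, IRF8 and CD86 lay below those of control, at 0.645 to 0.859 of the control level, and FCGR2A was about level at 1.03. The test was limma on log2(FPKM + 1), fitted to the 11913 genes that reached 1 FPKM in 3 or more libraries. A call needed a Benjamini-Hochberg adjusted p under 0.05 together with a log2 fold change of 1 or more in either direction. CD4, SIRPA, FCGR2A and IRF8 passed the filter on low values, while LILRB1, CD86, CD14 and LILRB4 did not. Of the 4 tested members 0 were called by limma, against 0.0336% of all tested genes. With the replicate number as a block 0.0504% were called, and none of the members. Without the block 0 of the 4 had an unadjusted p under 0.05, beside 1140 of the 11913 tested genes. CD4 had an unadjusted limma p of 0.0332 with the block (3227 genes under 0.05), 0.0471 with median-ratio scaling (1224) and 0.0232 with no filter (1726). With limma voom on recovered fragments and the block it was 0.0360 (3666 of 13526 genes). The fit with no filter also covered more genes than the 11913. Of the 4, 3 lay below 0, as did 45.5% of all tested genes. The median log2 fold change of the 4 was -0.22, beside 0.034 over all tested genes. It was -0.12 after the GC correction, -0.11 without I1 replicate 1, and -0.12 and -0.15 without control replicate 2 or I1 replicate 3. In bulk RNA of a cell line, fewer cells that express a gene and less of its RNA per cell cannot be told apart.

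CD4 (ENSG00000010610; hg38 chromosome 12, 6786858 to 6820808, plus strand), a co-receptor for MHC class II, had the highest level of the set. The controls had 36.6, 34.1 and 35.2 FPKM (replicates 1 to 3), and the I1 libraries 28.1, 30.2 and 31.5 in the same order. Every I1 library lay below every control library. That held for 8.74% of all tested genes. The means were 35.3 ± 1.28 and 29.9 ± 1.73 FPKM (SD, n = 3 each), a log2 fold change of -0.23 with a standard error of 0.108 and a 95% interval of -0.48 to 0.017. The limma adjusted p was 0.467 and the unadjusted p 0.0642. An exact permutation test over the libraries gave a 2-sided p of 0.1, the smallest that 3 against 3 allow. CD4 was lower in 3 of 3 same-numbered pairs, by log2 differences of -0.37, -0.17 and -0.16, and 25.8% of tested genes were lower in all 3 pairs. The gene had at least 2109 fragments in each library, 8616 in control and 6855 with I1 in all, so counting error was small: the depth-scaled ratio was 0.848 with an exact 95% interval of 0.821 to 0.875, which covers counting error only.

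The difference in CD4 was also smaller once the base composition of the genes was taken into account. Control replicate 1 held more of GC-rich transcripts than the other controls, with a Spearman's rho of 0.668 between GC content and its deviation over 11899 genes (not independent points). For control replicates 2 and 3 the rho was -0.614 and -0.336. No such rho was computed for I1 against control. The GC content of the CD4 transcript was 54.6%. After a correction for GC content in each library the log2 fold change of CD4 was -0.13 (limma adjusted p = 0.9502). With the replicate number as a block and no GC correction it was -0.23 with a limma adjusted p of 0.162. Without control replicate 1 it was -0.21. Since CD4 also marks T cells, their markers are given beside it. Of 10 such markers 8 had a row, with a summed level of 4.28 to 5.50 FPKM in control and 4.33 to 5.16 with I1. CD8A, the co-receptor of killer T cells, had 2.19 to 3.73 FPKM over the 6 libraries, CD247, a signalling chain of the T cell receptor, 1.06 to 1.42, and CD3D, another of its chains, 0.394 to 1.27. CD5, CD3E, CD2 and CD8B did not go above 0.0703 FPKM, and TRAC, the constant part of the receptor's alpha chain, was listed at 0 in all libraries (these 5 and CD3D were named after their values were seen). All 6 samples are labelled as the Kasumi-1 cell line, so T cells are no part of the labelled material.

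Of the partners of CD4, LCK, the kinase that binds its tail in T cells, had no row in the table. The other 2 genes listed as partners were UNC119, an adaptor of Src-type kinases, at 5.65 ± 0.292 FPKM in control and 5.06 ± 0.611 with I1 (SD, n = 3 each), and IL16, a cytokine that binds CD4, at 3.00 ± 0.194 and 2.46 ± 0.432. Neither passed (limma adjusted p = 0.593 and 0.503).

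SIRPA (ENSG00000198053; chromosome 20, 1894167 to 1940592, plus strand) encodes the receptor through which phagocytes read the signal of CD47. Control replicates 1 to 3 had 17.0, 19.8 and 17.5 FPKM and the I1 replicates 13.2, 18.4 and 15.04. The groups overlapped, because I1 replicate 2 lay above control replicates 1 and 3. Within same-numbered pairs SIRPA was lower with I1 in 3 of 3 (25.8% of tested genes), by -0.34, -0.098 and -0.21 on the log2 scale. The means were 18.1 ± 1.46 and 15.6 ± 2.62 FPKM (SD, n = 3 each), and the log2 fold change was -0.22 ± 0.144 (SE), with a 95% interval of -0.55 to 0.12 and a limma adjusted p of 0.502. It was -0.11 after the GC correction, -0.11 without I1 replicate 1 and -0.34 without I1 replicate 2. An antisense gene, AL117335.1, overlaps SIRPA on the other strand and had at most 0.205 FPKM.

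CD47, the ligand of SIRPA and a signal that protects cells from being eaten, was measured in the same libraries. It had 4.82, 7.86 and 6.53 FPKM in control and 8.55, 8.41 and 8.28 with I1. All I1 libraries lay above all controls, as they did for 12.9% of tested genes, and 32.1% were higher in 3 of 3 pairs. Its log2 fold change was 0.37 ± 0.164 (SE) and did not pass (limma adjusted p = 0.467), and after the GC correction it was 0.039. Receptor and ligand thus had estimates of opposite sign, neither past the test, and both moved towards 0 with the GC correction.

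The SIRP genes are near copies of each other in part. Of the windows of 100 bases in the longest coding transcript of SIRPA, 6.84% also occur in SIRPB1, an activating relative. SIRPB1 itself had 1.13, 1.01 and 1.89 FPKM in control and 1.04, 0.891 and 1.31 with I1, so its level was far below that of SIRPA in every library. SIRPB2 had 2.90 to 3.67 FPKM in controls and 2.56 to 3.48 after I1, and SIRPG and SIRPD did not go above 0.124 FPKM. Over the list of SIRP and CD47 genes, 6 of 9 were tested, 0 rose, 0 fell by limma (0 at an unadjusted p under 0.05), and the median log2 fold change was 0.12. Its most abundant members were PTK2B, a kinase of adhesion signalling, at 25.9 ± 3.504 and 23.2 ± 1.85 FPKM, and SKAP2, an adaptor that binds the SIRPA complex, at 7.09 ± 2.88 and 10.3 ± 1.42 (limma adjusted p = 0.598 and 0.467).

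LILRB1 (ENSG00000104972; chromosome 19, 54617158 to 54637528, plus strand), an inhibitory receptor for MHC class I, lay just under the filter in all libraries. Control replicates 1 to 3 had 0.768, 0.853 and 0.734 FPKM and the I1 replicates 0.646, 0.660 and 0.481. As with CD4, every I1 library lay below every control library, which was so for 1.88% of the genes that stayed under the filter, most of which have few fragments. The fragments behind these values were 70, 74 and 65 in control and 53, 56 and 40 with I1. The depth-scaled ratio was 0.759 with an exact 95% interval of 0.611 to 0.942, which again covers counting error only. An exact permutation test over libraries gave a 2-sided p of 0.1, the smallest possible. Fitted with all genes above 0 and no filter, its log2 fold change was -0.16 (limma adjusted p = 0.705). On fragments recovered from the FPKM values it was -0.40 (limma voom adjusted p = 0.508, and 0.287 with the replicate block).

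LILRB4 (ENSG00000186818; chromosome 19, 54643889 to 54670359, plus strand), an inhibitory receptor known from monocytic leukaemia, had 1 fragment in control replicate 3 and 0 in the other 5 libraries. Its level was thus under a floor of 3 fragments, 0.0260 to 0.0289 FPKM, in each library, and no fold is given. The neighbouring members of the leukocyte receptor cluster differed widely in level. LAIR1, an inhibitory receptor for collagen, had 29.04 ± 3.98 FPKM under control conditions and 27.4 ± 4.35 after I1, and LILRA2, an activating receptor, 15.6 ± 3.26 and 12.4 ± 1.31 (SD, n = 3 each). LILRA2 was lower with I1 in 3 of 3 pairs (25.8% of tested genes), the groups overlapped, and it did not pass (log2 fold change -0.29 ± 0.167, limma adjusted p = 0.468). After the GC correction the log2 fold change of LILRA2 was -0.30. LILRA1 had 0.674 to 1.29 FPKM in control and 0.544 to 1.33 with I1, while LILRB2, LILRB3, LILRA4 and LILRA6 did not exceed 0.180 FPKM. Of the 3 tested genes of this list 0 rose and 0 fell by limma, and none had an unadjusted p under 0.05. Of the windows of LILRB1, 3.08% occur in LILRB2, which was listed at 0 in 4 of the 6 libraries.

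**Figure D2:**
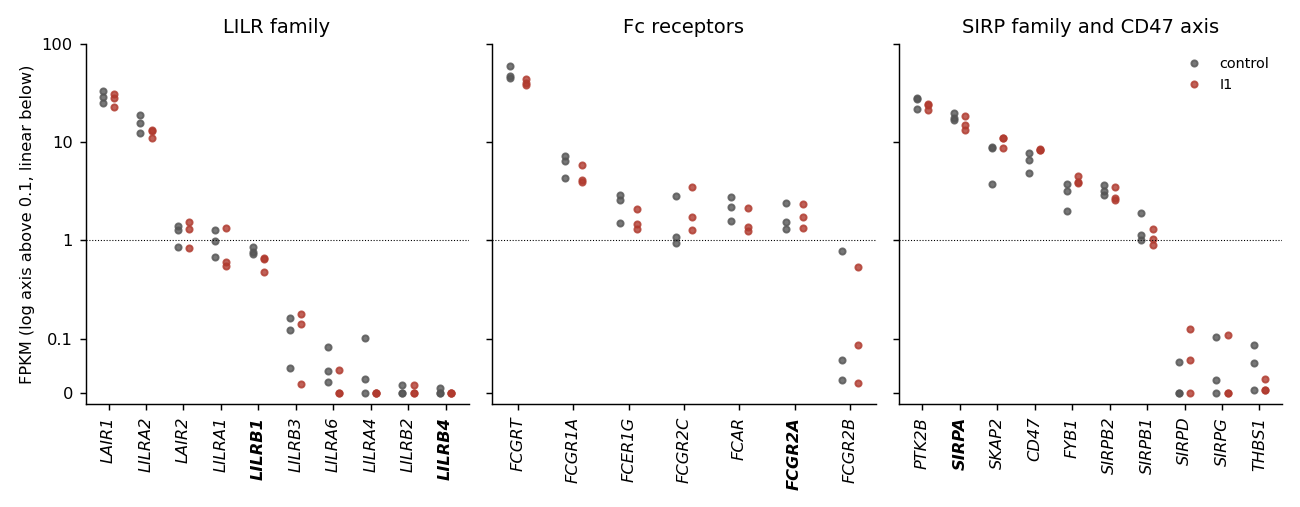
FPKM (log axis above 0.1, linear from 0 to 0.1) of the LILR genes, the Fc receptors and the SIRP and CD47 genes in each library, grey for control and red for I1, with the names of the described members in bold and a dotted line at 1 FPKM. SIRPA stands near the top of its panel, LILRB1 lies just under the dotted line, LILRB4 lies at or near 0, and FCGR2A and FCGR2C have similar levels.

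FCGR2A (ENSG00000143226; chromosome 1, 161505430 to 161524013, plus strand) encodes an activating receptor for the Fc part of IgG with its signalling motif in its own tail. The values were 1.54, 1.30 and 2.40 FPKM in control and 1.72, 1.33 and 2.33 with I1. Each pair of libraries with the same number had nearly the same level, with log2 differences of 0.0998, 0.018 and -0.031, and replicate 3 was the highest in both groups. The means were 1.75 ± 0.580 and 1.80 ± 0.504 FPKM, the log2 fold change was 0.029 ± 0.206 (SE) with a 95% interval of -0.45 to 0.50, and the limma adjusted p was 0.951. The sign turned under several settings: -0.067 after the GC correction, -0.063 with quantile normalization, -0.018 and -0.089 without control replicate 1 or 2, and -0.11 without I1 replicate 3. In control replicate 3 there were 226 fragments (exact 95% Poisson interval 197 to 257) against 120 (99.5 to 143) in control replicate 2, so these libraries differed by more than counting error.

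The same replicate was the highest for the near copies of FCGR2A. FCGR2C had 1.09, 0.951 and 2.86 FPKM in control and 1.72, 1.29 and 3.53 with I1. FCGR2B, the inhibitory member, had 0.0248, 0.0607 and 0.774 in control and 0.0183, 0.0887 and 0.543 with I1. Replicate 3 was the highest in both groups for 13.7% of all tested genes. Of the windows of FCGR2A 8.34% occur in FCGR2C and 4.54% in AL590385.2, a transcript that overlaps FCGR2A on the same strand, so fragments of these genes may be exchanged in counting. Among the other Fc receptors FCGRT, which recycles IgG, had 50.7 ± 8.03 FPKM in control and 40.8 ± 3.11 with I1. All I1 libraries lay below all controls (8.74% of tested genes), with a limma adjusted p of 0.467 (log2 fold change -0.30, and -0.093 after the GC correction). FCGR1A, the high-affinity receptor, had 5.99 ± 1.48 and 4.62 ± 1.06 FPKM (limma adjusted p = 0.499). Its log2 fold change was -0.31, and -0.40 after the GC correction. Of 5 tested Fc receptor genes beside FCGR2A 0 rose and 0 fell by limma (0 at an unadjusted p under 0.05). Their median log2 fold change was -0.30, and -0.31 after the GC correction.

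CD86 (ENSG00000114013; chromosome 3, 122055366 to 122121139, plus strand), the ligand of CD28 and CTLA4, was low and varied with the replicate number as well. Its FPKM was 0.0640, 0.168 and 0.445 in control and 0.0178, 0.0859 and 0.333 with I1, from 4, 10 and 27 against 1, 5 and 19 fragments. In both groups replicate 3 was highest (13.7% of tested genes) and replicate 1 lowest (26.1%). CD86 was lower with I1 in 3 of 3 pairs (25.8% of tested genes), and the groups overlapped. These shares were not computed for genes under the filter, such as CD86. The depth-scaled ratio of 0.650 had an exact 95% interval of 0.379 to 1.09, which spans 1 and covers counting error only. CD80, its close relative, did not go above 0.0564 FPKM (named after its values were seen). CD40, another costimulatory molecule, had 3.58 to 4.48 FPKM in control and 3.31 to 5.28 with I1. ICOSLG, the ligand of ICOS, had 1.93 to 2.38 and 1.79 to 2.42. Neither passed (limma adjusted p = 0.985 and 0.971).

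CD14 (ENSG00000170458; chromosome 5, 140631728 to 140633701, minus strand) had 4, 2 and 0 fragments in control and 0, 3 and 0 with I1, or at most 0.117 FPKM. The depth-scaled ratio was 0.533, and its exact 95% interval of 0.0862 to 2.49 spans a lower and a higher level with I1. A floor of 3 fragments corresponds to 0.0874 to 0.0970 FPKM. The partners of CD14 in sensing lipopolysaccharide differed in level. TLR4 had 0.847 to 2.63 FPKM in controls and 1.23 to 3.45 with I1, LY96, which completes that receptor, did not go above 0.198 FPKM (both named after their values were seen), and the adaptors downstream were well expressed. IRAK1, a kinase of the pathway, had 41.9 ± 3.69 and 34.7 ± 3.86 FPKM, and MYD88, the adaptor that recruits it, 22.1 ± 2.41 and 17.2 ± 1.70. Both were lower in 3 of 3 pairs (25.8% of tested genes) with no overlap (8.74%). Neither passed (log2 fold changes -0.27 and -0.34, limma adjusted p = 0.467 for both, and -0.059 and -0.29 after the GC correction). Of the 7 tested genes of the list 0 rose and 0 fell by limma, 1 had an unadjusted p under 0.05, and the median log2 fold change was -0.12.

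IRF8 (ENSG00000140968; chromosome 16, 85898803 to 85922609, plus strand), a transcription factor that directs progenitors to monocytes and dendritic cells, varied most among the tested members. It had 0.330, 1.67 and 1.14 FPKM in control and 0.461, 1.37 and 0.385 with I1. Replicate 1 was low and replicate 2 high in both groups, and replicate 3 was high in control and low with I1. The highest library had 5.05 times the level of the lowest, and 4.26% of tested genes had a range at least as wide, beside 36.3% for FCGR2A, 63.5% for SIRPA and 85.8% for CD4. The fragments were 31, 149 and 104 in control and 39, 120 and 33 with I1. The exact 95% Poisson intervals of control replicates 1 and 2, 21.1 to 44.0 and 126 to 175, lay apart, so these libraries differed by more than counting error.

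The means of IRF8 were 1.04 ± 0.673 and 0.739 ± 0.549 FPKM (SD, n = 3 each), with a log2 fold change of -0.22 ± 0.310 (SE), a 95% interval of -0.94 to 0.50 and a limma adjusted p of 0.718. The same-numbered pairs differed by 0.14, -0.17 and -0.63, so that the mean difference came mostly from replicate 3. It was -7.43e-05 without control replicate 2, -0.50 without control replicate 1, and -0.45 with quantile normalization. IKZF1, a lymphoid and myeloid regulator, and IRF5, which acts in macrophages, led the list of IRF genes and co-factors, with 18.9 ± 2.61 and 14.8 ± 3.37 FPKM in control and 20.3 ± 1.51 and 13.1 ± 2.50 with I1 (limma adjusted p = 0.710 and 0.673). Of the 6 tested genes of that list 0 rose and 0 fell by limma, and 0 had an unadjusted p under 0.05.

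**Figure D3:**
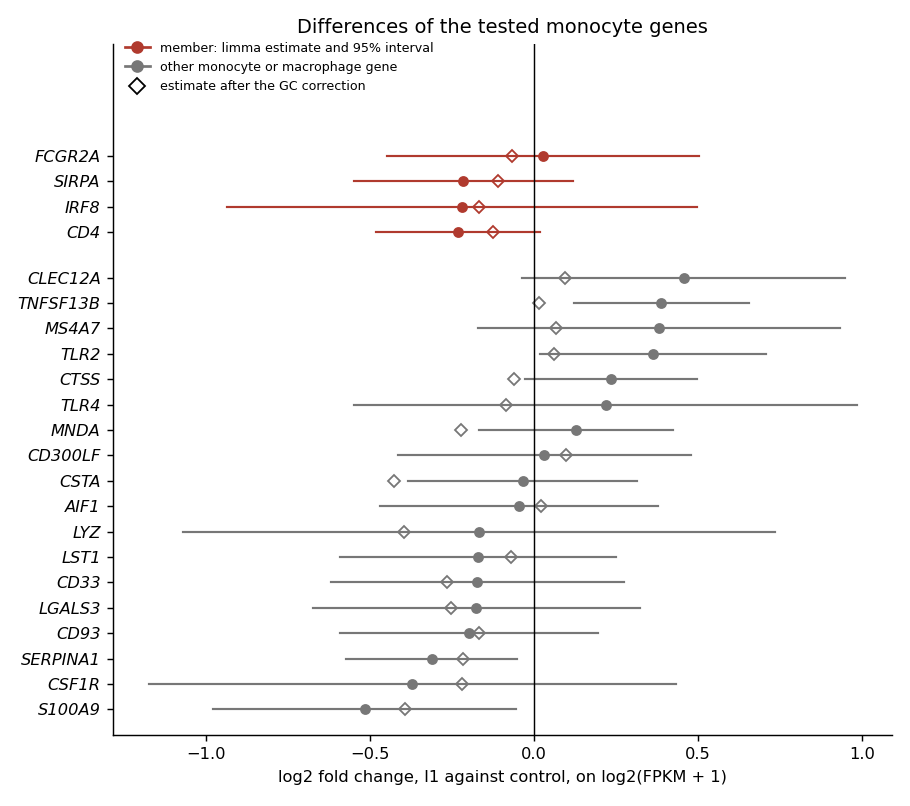
Log2 fold change of I1 against control (x axis, on the scale of log2(FPKM + 1)) for the 4 tested members in red and the 18 other tested monocyte and macrophage genes in grey, with dots and lines for the limma estimate and its 95% interval and open diamonds for the estimate after the GC correction. The intervals of all 4 members cross 0, and the diamonds of CD4 and SIRPA lie nearer to 0 than their dots.

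A list of 40 other monocyte and macrophage genes gave the wider picture. Of these, 36 had a row, 18 were tested, and 18 did not reach 1 FPKM in any library. By limma 0 of the 18 rose and 0 fell, and 4 had an unadjusted p under 0.05 (2.77% of all tested genes had such a p with a lower and 6.80% with a higher level). The median log2 fold change was -0.040, with 10 genes below 0 and 8 above. TNFSF13B, the B cell activating factor that monocytes secrete, had 20.5 ± 1.64 FPKM in controls and 27.1 ± 1.61 after I1, and TLR2, a receptor for bacterial lipoproteins, 19.1 ± 3.31 and 24.7 ± 1.87. Both were higher in 3 of 3 pairs (32.1% of tested genes) with no overlap (12.9%). The log2 fold changes were 0.39 and 0.36 (limma adjusted p = 0.467 for both), and 0.015 and 0.062 after the GC correction. The other genes with an unadjusted p under 0.05 were lower in 3 of 3 pairs (25.8% of tested genes) with no overlap (8.74%), and were named after their values were seen. SERPINA1, a protease inhibitor, had 15.7 ± 0.859 FPKM in controls and 12.5 ± 0.835 after I1, and S100A9, a calcium-binding protein of phagocytes, 5.94 ± 0.690 and 3.94 ± 1.24. Their log2 fold changes were -0.31 and -0.52 (limma adjusted p = 0.467 for both) and -0.22 and -0.39 after the GC correction. CSF1R, the receptor of the macrophage growth factor (named after its values were seen), had 2.27, 6.07 and 6.07 FPKM in control and 1.88, 4.32 and 3.94 with I1. Its lowest library in each group was replicate 1, as for 26.1% of tested genes.

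Of 10 tested transcription factors of monocytes 7 lay below 0, with a median of -0.14 on the log2 scale, and by limma 0 rose and 0 fell (2 at an unadjusted p under 0.05). SPI1, which encodes PU.1, had 123, 104 and 113 FPKM in control and 82.3, 91.1 and 90.6 with I1. CEBPD, a factor induced in activated macrophages, had 40.5, 19.6 and 30.0 in control and 14.6, 16.4 and 19.7 with I1, with an overlap of 1 library on each side. Their log2 fold changes of -0.36 and -0.75 went to -0.13 and -0.48 with the GC correction, and neither passed before it (limma adjusted p = 0.467 for both). Among the effectors of inhibitory and activating tails, 6 were tested, 0 rose and 0 fell by limma (0 at an unadjusted p under 0.05). PTPN11, a phosphatase that binds the tail of SIRPA, had 41.9 ± 11.4 and 53.5 ± 4.41 FPKM, and INPP5D, a lipid phosphatase recruited by inhibitory Fc receptors, 32.7 ± 5.24 and 31.4 ± 4.81. Their limma adjusted p were 0.467 and 0.869. Control replicates 1 to 3 of PTPN11 had 28.7, 48.5 and 48.4 FPKM. The log2 fold change of PTPN11 was 0.38, and 0.18 after the GC correction.

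The cell line's own markers and those of other blood cells set these levels in context. MPO, the myeloperoxidase of myeloblasts, had 8054 ± 1219 FPKM in controls and 6712 ± 357 after I1, and PRTN3, a granule protease, 4687 ± 428 and 4173 ± 550 (SD, n = 3 each). KIT, a receptor of progenitors, had 162 ± 15.7 and 196 ± 6.88 FPKM, and RUNX1T1, a partner in the fusion, 13.9 ± 1.63 and 17.5 ± 0.811. Both were higher with no overlap, as were 12.9% of tested genes, and were named after their values were seen. By limma 0 of the 9 genes of that list rose and 0 fell, with 6 below 0, 3 above, and 1 at an unadjusted p under 0.05. The summed level of the 8 plasmacytoid dendritic cell markers in the table, a cell type that shares IRF8 and CD4 with monocytes, was 7.42 to 11.3 FPKM in control and 7.87 to 9.59 with I1, mostly IL3RA and IRF7, while CLEC4C had no row. That of 6 classical dendritic cell markers was 4.69 to 6.70 and 5.09 to 7.57, of 5 B cell markers 7.13 to 12.8 and 6.08 to 8.93, of 5 NK cell markers 1.43 to 1.48 and 0.876 to 1.74, of 3 mature neutrophil markers 64.6 to 115 and 54.5 to 94.0, almost all CSF3R, and of 6 erythroid and megakaryocyte markers 2.97 to 5.85 and 2.65 to 3.18. All samples are labelled as the Kasumi-1 line, so these sums describe transcripts of that line and not a mixture of blood cells. Over all 18 lists beside the members, 86 genes were tested, of which 0 rose and 0 fell by limma, 8 had an unadjusted p under 0.05, and 55 lay below 0. Over all 11913 tested genes these counts were 1140 and 5424 (45.5%).

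By likeness of pattern over the 6 libraries, the protein-coding genes nearest to CD4 were ARRDC1, TOMM40 and EBPL, with Pearson's r of 0.987, 0.987 and 0.985 on log2(FPKM + 1). Those nearest to SIRPA were TNFAIP2, RAB3A and POLR2E, with r of 0.986, 0.985 and 0.981. TOMM40, a pore protein of mitochondrial import, had 59.6, 54.4 and 53.8 FPKM in controls and 33.3, 40.3 and 41.3 after I1, and POLR2E, a subunit of RNA polymerase II, 39.1, 42.4 and 37.8 against 30.4, 40.4 and 32.8. These r are a description over 6 libraries, and any differences between these in depth or base composition enter both genes of a pair: 141 genes had an r above 0.9 with CD4 and 145 with SIRPA.

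**Figure D4:**
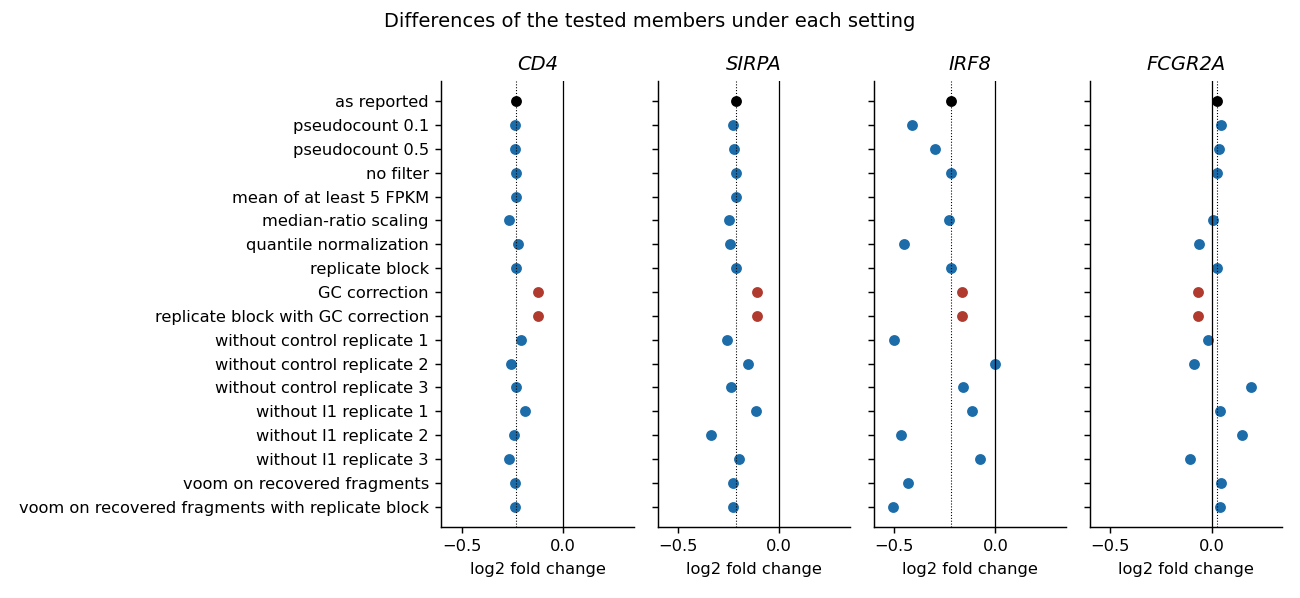
Log2 fold change of I1 against control (x axis) of CD4, SIRPA, IRF8 and FCGR2A under each setting (y axis), black for the value as reported, red with a GC correction and blue otherwise, with a dotted line at the reported value. CD4 and SIRPA lie below 0 in every setting shown, IRF8 reaches 0 without control replicate 2, and FCGR2A lies on both sides of 0. No point is drawn for IRF8 and FCGR2A at a mean of at least 5 FPKM, which they did not reach.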

How the data were processed

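RNA of 3 control and 3 I1 samples was sequenced after preparation with a stranded mRNA kit, per the labels' protocols. The deposited data are FPKM values of 29810 genes, computed by the authors, in 1 table with 6 sample columns (0 left unused). The table is named for MOLM-13 and THP-1 cells with I3, whereas its column headers name Kasumi-1 with control or I1 and match the sample titles, which were followed. The submitters' processing notes name the build hg38 and the tools Trimmomatic, HISAT2, HTSeq and Cufflinks. Not given in the sources used here were the tools' versions and roles, the gene models and the strand setting.

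Lengths, positions and GC content came from GENCODE release 29 (hg38), which matched 29703 genes. FPKM values times length were whole multiples of a step, within 0.05 fragments in all libraries for 95.7% of these genes, and gave library totals of 17331000 to 18204000 in control and 16391000 to 16948000 with I1. Intervals and floors on fragments cover counting error only.

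The fit used limma 3.58.1 (R 4.3.3, with Python 3.11.15 for tables), log2(FPKM + 1) as the response and a trended prior variance, on the 11913 genes that reached 1 FPKM in 3 or more libraries. The pseudocount shrinks the fold changes of low genes. The fit was tested on simulated data, by adjusted p alone. These had independent libraries with no pairing and no trend on GC content, and only genes with many fragments were changed. Same-numbered control and I1 samples (numbers of the titles) deviated together from their group means, with r of 0.476, 0.457 and 0.412. Equal numbers were therefore compared as pairs, but only in the pair differences, the counts of pairs and the replicate block. Unless the block is named, the estimates, intervals and p-values of the fit and the permutation tests left the pairing out. The GC correction removed from each library a smooth trend (lowess, span 0.3) of its deviation from the gene mean on GC content. Alternatives were other pseudocounts, filters and scalings, the replicate block, the GC correction, leaving out each library, and, chosen after seeing the data, limma voom on recovered fragments (13526 genes). The members and the gene lists were chosen with earlier results of these data known. Genes named beside the members are up to 2 tested genes with the highest mean FPKM per list and the largest change past the test (none passed). Any LILR, Fc receptor, SIRP or CD47 gene could be named, and some, such as LAIR2, FCER1G, FCAR and FYB1, were not. Also named are the 3 genes nearest in pattern to the 2 most abundant members, and genes marked as named after their values were seen.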

Additional observations from a re-analysis of the deposited data

How the results depend on the processing

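No member passed the threshold under any setting in which it was tested. CD4 stayed below 0 in all 17 alternatives (-0.27 to -0.13, limma adjusted p 0.159 to 0.9502), as did SIRPA (-0.34 to -0.11, 0.188 to 0.966), and IRF8 in its 16 (-0.51 to -7.43e-05, 0.289 to 1.00). FCGR2A turned to -0.063 with quantile normalization and to -0.067 with the GC correction, with or without the replicate block, and ranged from -0.11 to 0.19 when 1 library was left out. The cause was not tested. With a pseudocount of 0.1 the differences of the members under the filter moved, CD14 from -0.038 to -0.28, LILRB1 from -0.16 to -0.36 and CD86 from -0.095 to -0.45. With voom on recovered fragments, with and without the replicate block, LILRB1 was at -0.40 in both and CD86 at -0.70 and -0.90. With 1 library left out these 3 ranged from -0.082 to 0.00030, from -0.19 to -0.11 and from -0.21 to 0.030. The median of the other monocyte and macrophage genes went from -0.040 to -0.13 with the GC correction, with or without the block, and ranged from -0.070 to 0.042 with 1 library left out, and that of the 4 tested members from -0.29 to -0.11.

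Over all tested genes 4 passed, and 6 with the replicate block. The settings with no filter, a mean of at least 5 FPKM and voom covered other numbers of genes. Their counts are therefore not shares of the same total. With limma, 0 passed with pseudocounts of 0.1 and 0.5, with no filter, with a mean of at least 5 FPKM and with the GC correction (1076, 1104, 1726, 685 and 613 at an unadjusted p under 0.05), 2 with quantile normalization, 1 with the block and the GC correction, 0 with voom with and without the block (3666 and 1386), and 0 to 2 with 1 library left out. The replicate block changed no call of a member. Quantile normalization, the GC correction and the higher filter gave no value for members under the filter, nor the higher filter for IRF8 and FCGR2A, and no alternative was run for LILRB4 and KLF4. The members under 1 FPKM rest on few fragments: LILRB1 had 209 fragments in all controls and 149 with I1, CD86 41 and 25, CD14 6 and 3, and LILRB4 1 and 0.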
